A study of Mus musculus with 9 samples.

Results

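Glycolysis splits glucose into pyruvate and gains ATP without oxygen, and the response to low oxygen raises many genes of that pathway. The 34 genes described here were taken by name from a table of 25124 genes, and all 34 were found: 5 transporters of glucose and lactate, 11 genes of upper glycolysis, 5 of lower glycolysis, 4 that set the fate of pyruvate, 3 of oxygen sensing and 6 that low oxygen is known to induce. They were measured by RNA sequencing of whole ear skin of C57BL/6 mice. All mice had been swabbed on the ears with Staphylococcus epidermidis strain LM087, a skin commensal, every other day, and skin was taken on day 8. In 5 libraries the mice had the bacterium alone, and in 4 they had it together with anti-CTLA-4, an antibody that blocks a restraining receptor of T cells. The labels give neither the age of the mice nor whether each library came from a separate animal, so p-values measure only the spread between these libraries. Skin without the bacterium was not analysed here. The comparison asks how this skin differs when the checkpoint is blocked.

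Glucose enters cells through SLC2A carriers, is trapped by hexokinases and is carried by the later enzymes to pyruvate, which lactate dehydrogenase turns into lactate or mitochondria oxidise. HIF-1α, the product of Hif1a, is a transcription factor that prolyl hydroxylases (Egln1, Egln3) mark for destruction when oxygen is present. When it escapes, it binds short sites near many of these genes, some of them with the core letters ACGTG. Its activity is set largely at the protein level, which RNA does not measure. In skin, epidermis works at low oxygen, and activated myeloid and T cells are known for high glycolysis.

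Of the 34 genes, 5 were higher with anti-CTLA-4 and 0 were lower by limma on log2(TPM + 1) at an adjusted p under 0.05. These were the glucose transporter Slc2a3, the lactate exporter Slc16a3, the hexokinase Hk3, the pyruvate kinase Pkm and Hif1a. Over all 15704 genes tested, 7.16% were called higher and 4.48% lower, so the 14.7% of these genes called higher stands beside that 7.16%. All 34 passed the filter of at least 1 TPM in at least 4 libraries. Fold changes were positive for 24 and negative for 10, with a median of 0.09 on the log2 scale against -0.01 over all genes tested. An unadjusted p under 0.05 was reached by 11 of the 34, 10 of them higher and Pfkm lower, and by 26.4% of all genes tested. The groups did not overlap for 5 of the 34, all higher (Slc2a1, Slc2a3, Slc16a3, Hk3 and Pkm), against 8.02% of all genes that were apart and higher and 6.39% apart and lower. Limma voom on the recovered reads called 9 of the 34 higher and 0 lower, where it called 11.7% of all genes higher and 7.24% lower. Of the 5 calls, Slc2a3 and Slc16a3 held when any of the 9 libraries was left out. The Hk3 call was lost without replicate 1 of the antibody group (adjusted p = 0.0542), the Hif1a call when any of 5 libraries was left out and the Pkm call when any of 6 was. With the mean of 15 skeletal muscle genes as a covariate, limma called 0 of the 34, and across the whole fit no more than 1 gene: 0 higher (0.00%) and 1 lower (0.00637%). Unadjusted p was under 0.05 in that fit for 4 of the 34 and for 2370 genes in all. The log2 fold changes there were 0.77 for Slc2a3, 0.71 for Slc16a3, 0.90 for Hk3, 0.31 for Hif1a and 0.23 for Pkm, against 0.71, 0.75, 1.16, 0.40 and 0.40 without the covariate. The covariate itself differed between the groups, with 52.2% of its variance between them. It raised the SE 1.5 times in the median gene, so muscle content and treatment could be only partly told apart in that fit.

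**Figure D1:**
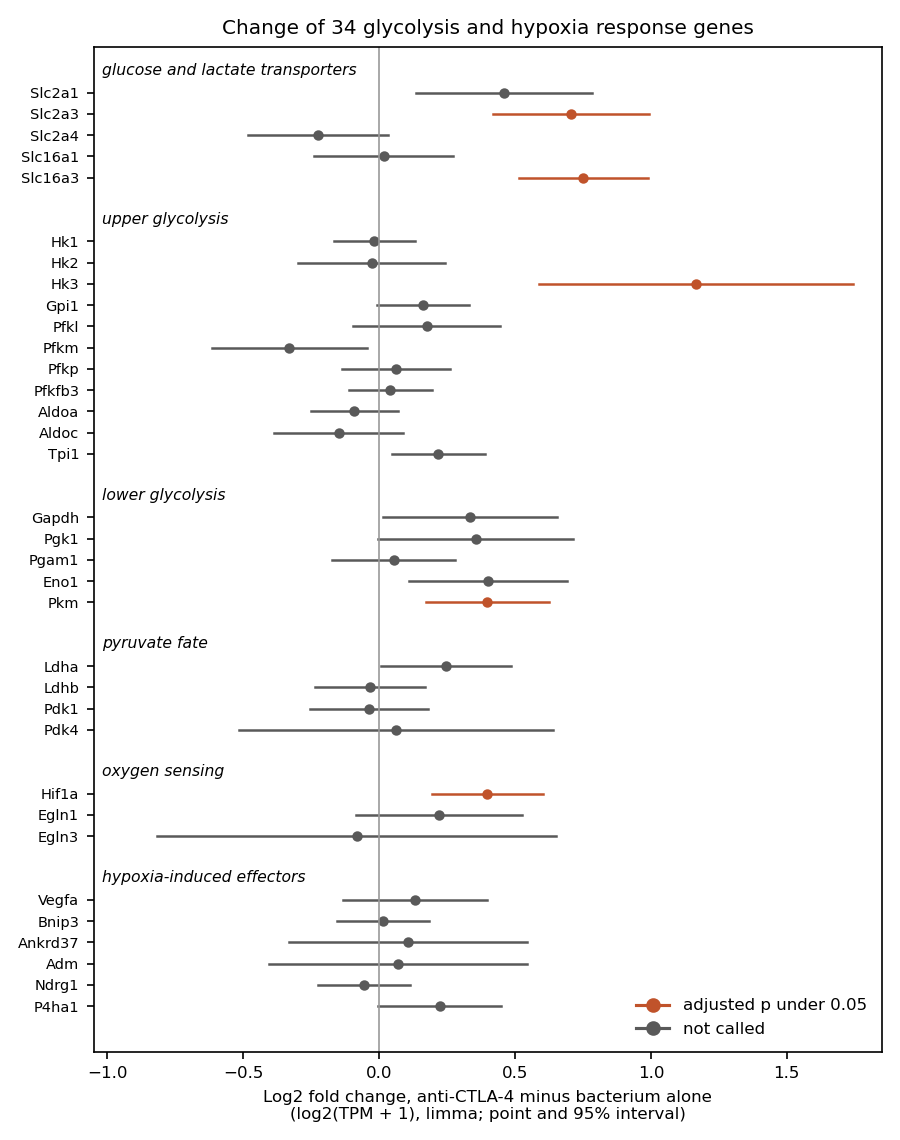
Log2 fold change (horizontal axis, anti-CTLA-4 minus bacterium alone, on the log2(TPM + 1) scale) of the 34 genes, ordered by role; points are limma estimates and lines 95% intervals. Slc2a3, Slc16a3, Hk3, Pkm and Hif1a (orange) lie right of 0 and passed the threshold, and the intervals of most others cross 0.

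Stretches of DNA before the start of 5 of the genes are shown because they hold, or lack, ACGTG, the form of the HIF site that was searched for. Other forms of its core, such as GCGTG, were not searched for and are not marked. They are the 250 bases upstream of the RefSeq start in build GRCm38.p6, written 5′ to 3′ on the strand of the gene, with ACGTG or its reverse complement CACGT in capitals. Slc16a3 (chr11:120948817-120949066, plus strand), Hk3 (chr13:55021386-55021635, minus strand) and Hif1a (chr12:73907617-73907866, plus strand) were called higher. Bnip3 (chr7:138909507-138909756, minus strand) and Ldha (chr7:46846832-46847081, plus strand) were not called.
Slc16a3: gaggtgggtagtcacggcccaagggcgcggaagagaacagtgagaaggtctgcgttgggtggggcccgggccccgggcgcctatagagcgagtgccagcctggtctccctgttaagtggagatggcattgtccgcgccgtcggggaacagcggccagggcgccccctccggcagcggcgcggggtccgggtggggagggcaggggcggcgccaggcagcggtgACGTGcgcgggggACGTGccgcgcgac
Hk3: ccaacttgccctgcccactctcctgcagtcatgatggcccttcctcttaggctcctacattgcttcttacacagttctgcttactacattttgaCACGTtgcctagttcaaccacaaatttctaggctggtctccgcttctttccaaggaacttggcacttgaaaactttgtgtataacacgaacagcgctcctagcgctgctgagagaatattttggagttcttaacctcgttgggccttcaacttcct
Hif1a: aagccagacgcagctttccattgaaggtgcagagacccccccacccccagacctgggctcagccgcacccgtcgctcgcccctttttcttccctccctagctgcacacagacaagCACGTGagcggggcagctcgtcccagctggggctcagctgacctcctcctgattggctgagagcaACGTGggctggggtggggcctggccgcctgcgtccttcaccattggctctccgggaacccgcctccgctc
Bnip3: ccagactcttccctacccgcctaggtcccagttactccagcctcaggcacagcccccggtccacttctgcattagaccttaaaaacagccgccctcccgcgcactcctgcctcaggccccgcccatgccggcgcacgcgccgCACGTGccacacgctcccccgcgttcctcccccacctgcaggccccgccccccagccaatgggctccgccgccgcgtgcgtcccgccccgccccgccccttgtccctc
Ldha: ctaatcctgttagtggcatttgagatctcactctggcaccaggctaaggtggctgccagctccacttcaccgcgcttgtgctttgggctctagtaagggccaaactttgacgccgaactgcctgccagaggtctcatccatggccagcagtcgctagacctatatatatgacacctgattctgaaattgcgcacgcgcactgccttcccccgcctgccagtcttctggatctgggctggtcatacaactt
The Slc16a3 stretch held ACGTG starting 27 and 14 bases before the start, and the Hk3 stretch held CACGT starting 156 bases before it. In Hif1a the letters began 135, 134 and 70 bases before the start, where the first pair overlap in the palindrome CACGTG, which is also an E-box. Bnip3 held the same palindrome with its overlapping pair at 108 and 107 bases, and Ldha held neither ACGTG nor CACGT in this window. Of the 34 genes, 31 had a promoter in the RefSeq table, and Slc2a3, Slc2a4 and Ndrg1 did not. The letters stood in 16 of these 31 (51.6%), against 17.7% of 18397 promoters of genes in the deposited table. The palindrome CACGTG stood in 4 of the 31 (12.9%), against 6.65%. The 34 were listed as glycolysis and low-oxygen genes, many of them known for such sites. Their higher share is therefore no result of these data. Of the 4 called genes with a promoter, Pkm held no match, in a stretch whose start lies 208 bases from the start in the deposited table. Transporters and effectors that limma on all tested genes did not call also held the letters, among them Slc2a1 at 36 bases, P4ha1 at 16 and Ankrd37 at 6 and 241. A match describes these letters only and is no measurement of binding.

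The values are TPM, abundance scaled per base of gene and to a library total. Multiplied by the table's gene length, which runs from gene start to gene end with introns, they stepped in whole reads in every library, and this gave between 10213741 and 13868725 reads per library. The reads behind a gene are given below where they are few, and their counting error covers counting only. TPM per base of gene span cannot be compared between genes, so levels between genes are given as reads per kilobase of the longest transcript and per 1000000 reads. Whether reads in introns were counted was not stated in the labels, and where they were, these levels and the family shares below would include them. In whole skin, a change in the number of cells of a type and a change of RNA per cell cannot be told apart. Markers of immune cells were higher with the antibody: 9 of 11 monocyte and macrophage genes, 6 of 9 tested neutrophil genes and 8 of 9 T cell genes. Among those counted, Cd6, Fpr2 and Retnlg passed the filter of 1 TPM only through the antibody group. They were under 1 TPM in most or all libraries with the bacterium alone, so their calls add little to these counts. The summed TPM of the monocyte and macrophage list ran from 379 to 558 with the bacterium alone and from 672 to 995 with the antibody, and that of the T cell list from 23.8 to 31.0 and from 57.4 to 80.9. The neutrophil sum ran from 130 to 1501 and from 1546 to 4486, most of it S100a8 and S100a9, which epidermis also makes. No gene of these 3 lists was at 0 in all libraries, and 3 neutrophil genes were at 0 in at least 1. Skeletal muscle, which lies in the ear, had 2 of 15 genes lower (Pvalb and Actn3), with all 15 fold changes negative and sums of 1853 to 2932 and 1579 to 2205. Voom called 7 of the 15 lower. The epidermal genes that define skin were present, with sums over 8 genes between 19489 and 27387 TPM. Of those 8, 1 was higher and 3 were lower. In the other lists, 2 of 5 tested hair follicle genes were lower. Limma called 0 of 8 adipocyte, 8 activated epidermis, 7 endothelial, 6 fibroblast, 6 cartilage and 3 red cell genes tested, with 1, 6, 2, 1, 1 and 0 of them at an unadjusted p under 0.05, and voom called 0, 6, 2, 1, 1 and 0. Of 8 stress and RNA handling genes, 1 was higher and 1 lower. The part of any of these cell types in the results below was not tested; the fits with the muscle covariate are limited as described above.

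Among the carriers, Slc2a3 and Slc16a3 rose while Slc2a4 and Slc16a1 were not called. Slc2a3 encodes GLUT3, a high-affinity glucose carrier of neurons and leukocytes (mm10 chr6:122727809-122742745). Its TPM with the bacterium alone was 1.96, 1.48, 2.19, 2.14 and 2.17 in replicates 1 to 5, and with anti-CTLA-4 it was 3.69, 4.90, 4.13 and 2.91 in replicates 1 to 4. Every antibody library lay above every library with the bacterium alone. The means were 1.99 ± 0.300 (SD, n = 5) and 3.91 ± 0.832 (SD, n = 4), a ratio of 1.97, and the log2 fold change was 0.71 ± 0.13 (SE) with a limma adjusted p of 0.00931. These values rest on 38 to 107 reads, and counting error alone is 14.8% of the mean with the bacterium alone, where the SD was 15.1%. The order of Slc2a3 across the antibody replicates, 2, 3, 1, 4, was also that of the summed monocyte and macrophage genes (995, 922, 886 and 672 TPM), an order looked at after the values were seen. With the bacterium alone that order did not match. Among the 5 genes called, Slc2a3 is the one that a filter at 5 TPM removes.

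Slc16a3 encodes MCT4, which carries lactate out of highly glycolytic cells (chr11:120949067-120959000). Its TPM was 7.15, 6.37, 7.22, 5.74 and 7.89 with the bacterium alone and 14.1, 11.2, 13.1 and 10.6 with the antibody. The groups did not overlap, and the lowest antibody library was well above the highest of the others. The mean went from 6.87 ± 0.8302 (SD, n = 5) to 12.3 ± 1.65 (SD, n = 4), a ratio of 1.79. The log2 fold change was 0.75 ± 0.11 (SE), with a limma adjusted p of 0.00372, the smallest of the 34 genes. Slc16a1, encoding the more widely expressed carrier MCT1, was at 27.5 ± 3.64 TPM and 27.9 ± 3.47 TPM (SD, n = 5 and n = 4), with a 95% interval of the log2 fold change from -0.24 to 0.27.

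Slc2a1 encodes GLUT1, the main glucose carrier of the epidermis. Its TPM was 16.4, 11.8, 16.0, 11.3 and 16.8 with the bacterium alone and 17.4, 17.7, 23.3 and 22.2 with the antibody. The groups did not overlap, but antibody replicates 1 and 2 stood barely above the highest library without it. A log2 fold change of 0.46 ± 0.14 (SE) did not pass over all genes tested (limma adjusted p = 0.0717). It passed when limma was run on protein-coding genes only (adjusted p = 0.0429, where 8.87% of genes were higher and 5.80% lower). It also passed with limma voom on the recovered reads (adjusted p = 0.0179).

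Slc2a4 encodes GLUT4, the insulin-responsive carrier of muscle and fat, and its fold change was negative without passing. It was at 16.6, 16.2, 13.6, 18.2 and 12.9 TPM with the bacterium alone and at 15.2, 13.8, 11.5 and 11.9 with the antibody, and the groups overlapped. Its log2 fold change was -0.22 ± 0.11 (SE; limma adjusted p = 0.250), and 0.03 with the muscle covariate. Replicate 4 was its highest library with the bacterium alone and replicate 1 its highest with the antibody. The muscle sum was also highest in these libraries, at 2932 and 2205 TPM.

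**Figure D2:**
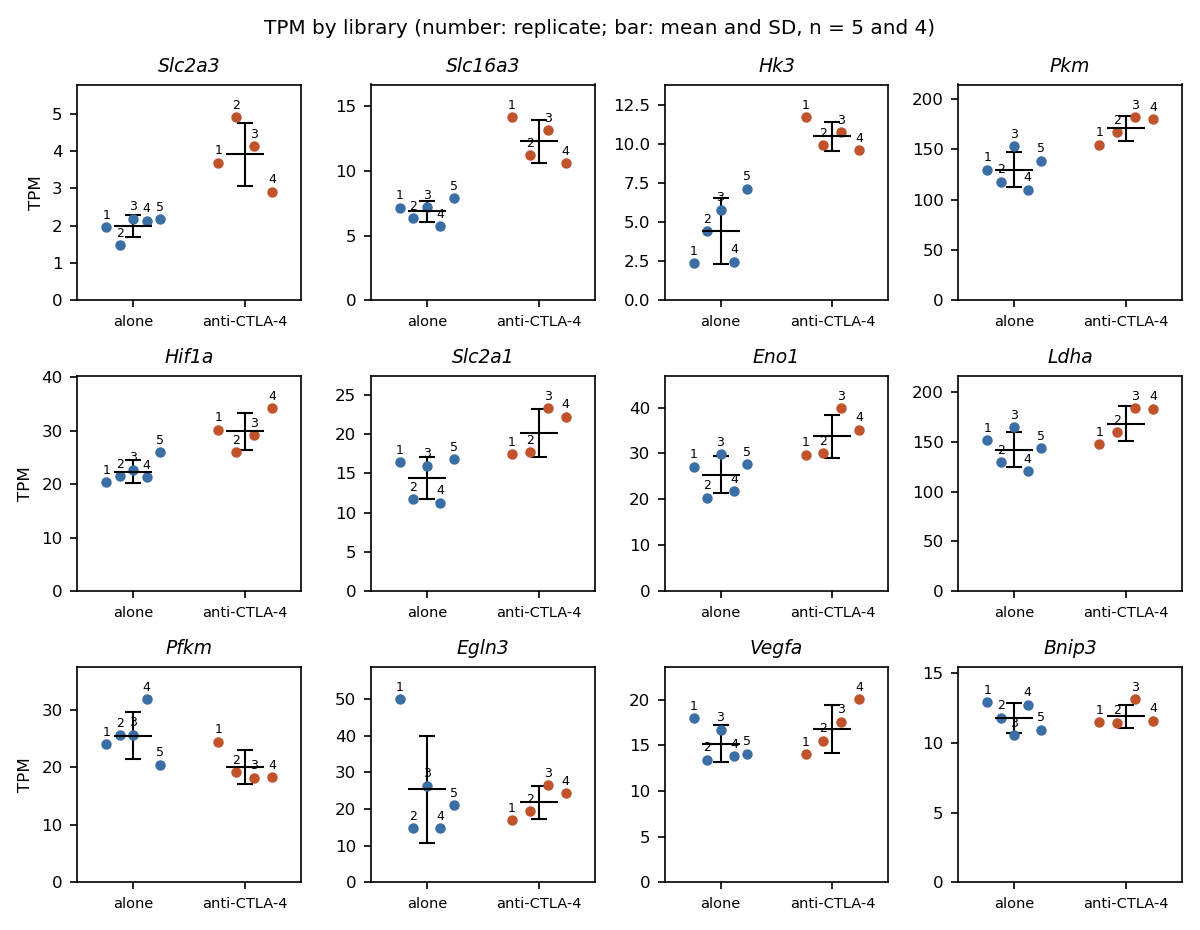
TPM of 12 of the genes in each library (vertical axes from 0; points numbered by replicate; black bars mean and SD, n = 5 and n = 4). The groups do not overlap for Slc2a3, Slc16a3, Hk3, Pkm and Slc2a1; they meet for Hif1a and overlap for the rest.

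Of the 11 genes of upper glycolysis, Hk3 was the 1 called. Hexokinases phosphorylate glucose; Hk1 is ubiquitous, Hk2 inducible and muscle-rich, and Hk3 is found mainly in myeloid cells. Hk3 (chr13:55005985-55021385) was at 2.37, 4.41, 5.80, 2.47 and 7.15 TPM with the bacterium alone and at 11.7, 9.91, 10.8 and 9.62 with the antibody. The antibody libraries lay close together and above all others, while the libraries without it spread over a wide range. The mean rose from 4.44 ± 2.08 (SD, n = 5) to 10.5 ± 0.932 (SD, n = 4), a ratio of 2.36 and a log2 fold change of 1.16 ± 0.26 (SE; limma adjusted p = 0.0202). Replicates 1 and 4, where Hk3 was lowest, also had the lowest sums of the neutrophil genes other than S100a8 and S100a9, at 36.8 and 34.7 TPM, against 43.3, 41.4 and 44.1 in replicates 2, 3 and 5. In antibody replicates 1 to 4 that sum was 75.5, 64.5, 73.6 and 64.6 TPM. Replicate 1 was highest and replicates 2 and 4 lowest in both. Of the genes in that sum, Retnlg and Mmp9 had this pattern, and Csf3r, Cxcr2, Clec4d, Il1r2, Trem1 and Fpr2 did not. Cxcr2 was at 23.2, 19.1, 21.3 and 28.0 TPM, highest in antibody replicate 4, where Hk3 was lowest. The sum with S100a8 and S100a9 had another order there, at 1546, 1952, 2434 and 4486 TPM, and both orders were looked at after the values were seen. Hk1 and Hk2 had log2 fold changes of -0.02 and -0.03, with 95% intervals of -0.17 to 0.13 and -0.30 to 0.24.

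The enzymes between the hexokinase step and the triose phosphates gave 0 calls by limma, with Pfkm and Tpi1 at an unadjusted p under 0.05. Phosphofructokinase commits sugar to glycolysis and has liver (Pfkl), muscle (Pfkm) and platelet (Pfkp) forms. Pfkm was at 23.98, 25.6, 25.7, 31.8 and 20.5 TPM with the bacterium alone and at 24.4, 19.1, 18.2 and 18.3 with the antibody, and the groups overlapped through antibody replicate 1. Its log2 fold change was -0.33 ± 0.13 (SE), the most negative of the 34 (limma adjusted p = 0.131). Its highest library in each group was the one with the highest muscle sum, and with the muscle covariate its log2 fold change was 0.04. Pfkl and Pfkp had log2 fold changes of 0.17 and 0.06 and Pfkfb3, which makes the activator fructose 2,6-bisphosphate, had 0.04. For Gpi1, which converts glucose 6-phosphate to fructose 6-phosphate, the log2 fold change was 0.16 (limma adjusted p = 0.211). Aldoa, the muscle-type aldolase, was at 535 ± 38.0 TPM and 502 ± 20.9 TPM (SD, n = 5 and n = 4). Aldoc, the brain-type form, had a log2 fold change of -0.15. Tpi1, which interconverts the triose phosphates, was at 131 ± 10.1 and 153 ± 11.6 TPM (SD, n = 5 and n = 4). The log2 fold change was 0.22 (limma adjusted p = 0.0986). Voom on recovered reads called it (adjusted p = 0.0302).

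All 5 genes of lower glycolysis, the steps that yield ATP, had positive fold changes, though that of Pgam1 turned negative with the muscle covariate and without antibody replicate 3. Pkm was the gene called. Pkm, which makes pyruvate and the second ATP, lies at chr9:59656368-59679375. It was at 130, 118, 153, 110 and 139 TPM with the bacterium alone and at 155, 167, 182 and 180 with the antibody. The groups did not overlap, with replicate 3 of the bacterium alone just under antibody replicate 1. The mean went from 130 ± 17.0 (SD, n = 5) to 171 ± 12.5 (SD, n = 4), a ratio of 1.31. The log2 fold change was 0.40 ± 0.10 (SE; limma adjusted p = 0.0338). That p ran from 0.0172 to 0.0853 when 1 library was left out, and was over 0.05 without replicates 1, 2 or 4 of the bacterium alone or antibody replicates 2, 3 or 4. The table holds 1 row for Pkm, so its M1 and M2 splice forms were not separated.

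Eno1, the enolase of most tissues, had a fold change of the same size without passing. It was at 27.1, 20.4, 29.8, 21.9 and 27.6 TPM with the bacterium alone and at 29.8, 30.1, 39.8 and 35.2 with the antibody. Replicate 3 of the bacterium alone was level with antibody replicate 1, so the groups met. Its log2 fold change was 0.40 ± 0.13 (SE; limma adjusted p = 0.0804), and voom on recovered reads called it (adjusted p = 0.0203). Gapdh, the glyceraldehyde phosphate dehydrogenase often used as a reference gene, had a log2 fold change of 0.34 (limma adjusted p = 0.169), from 53 to 102 reads. Without antibody replicate 2 its limma adjusted p was 0.0307. Pgk1, which makes the first ATP of glycolysis, had 0.35 (adjusted p = 0.194), and Pgam1, the phosphoglycerate mutase, 0.05 (adjusted p = 0.786).

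Limma and voom each called 0 of the 4 genes of pyruvate fate, and Ldha had an unadjusted p under 0.05. Ldha, the lactate dehydrogenase subunit that favours lactate, was at 152, 130, 164, 120 and 143 TPM with the bacterium alone and at 147, 159, 183 and 183 with the antibody. The groups overlapped, with antibody replicates 3 and 4 above every other library. The log2 fold change was 0.25 ± 0.11 (SE; limma adjusted p = 0.174). Ldhb, the subunit of oxidative tissues, was at 9.29 ± 1.08 and 9.03 ± 0.845 TPM (SD, n = 5 and n = 4). The kinases Pdk1 and Pdk4 shut off pyruvate dehydrogenase. Pdk1 had a log2 fold change of -0.04. Pdk4, which fasting and fat oxidation induce, spread from 7.41 to 19.5 TPM over the 9 libraries and had a 95% interval of -0.51 to 0.64.

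Of the oxygen sensing genes, Hif1a rose and its hydroxylases were not called. Hif1a (chr12:73907867-73947554) was at 20.4, 21.5, 22.7, 21.3 and 26.0 TPM with the bacterium alone and at 30.2, 25.9, 29.2 and 34.1 with the antibody. Replicate 5 of the bacterium alone and antibody replicate 2 met, and the other libraries were apart. The mean went from 22.4 ± 2.17 (SD, n = 5) to 29.8 ± 3.39 (SD, n = 4), a ratio of 1.33. The log2 fold change was 0.40 ± 0.09 (SE; limma adjusted p = 0.0235). Leaving out 1 library gave adjusted p from 0.0146 to 0.0576. It was over 0.05 without replicates 1, 2 or 4 of the bacterium alone or antibody replicates 1 or 4. Egln1, which encodes PHD2, the main oxygen sensor, had a log2 fold change of 0.22 (limma adjusted p = 0.340). Egln3 encodes PHD3, itself a HIF target, and was at 49.8, 14.7, 26.4, 14.7 and 21.1 TPM with the bacterium alone and at 17.0, 19.4, 26.4 and 24.3 with the antibody. Replicate 1 of the bacterium alone stood far above the rest, on 1903 reads. Egln3 had a log2 fold change of -0.08 with that library and 0.19 without it, not called either way (limma adjusted p = 0.904 and 0.626).

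Limma called 0 of the 6 effectors that low oxygen is known to induce, with 0 at an unadjusted p under 0.05. Vegfa, the angiogenic growth factor, was at 17.9, 13.4, 16.7, 13.8 and 14.1 TPM with the bacterium alone and at 14.04, 15.5, 17.6 and 20.0 with the antibody. The groups overlapped, and the log2 fold change was 0.13 ± 0.12 (SE). P4ha1, a collagen prolyl hydroxylase, was at 10.5, 8.999, 10.7, 9.55 and 9.72 TPM with the bacterium alone and at 10.3, 10.1, 13.99 and 12.9 with the antibody. Antibody replicates 3 and 4 were above all others and replicates 1 and 2 within the range without it. Its log2 fold change was 0.22 (limma adjusted p = 0.193), and voom on recovered reads called it (adjusted p = 0.0489). Bnip3, a mitophagy receptor, was at 11.8 ± 1.04 and 11.9 ± 0.807 TPM (SD, n = 5 and n = 4), with a 95% interval of the log2 fold change from -0.15 to 0.18. Ndrg1, a stress and differentiation gene, had an interval of -0.23 to 0.11. Ankrd37, a HIF target of little known function, and Adm, the vasodilator peptide adrenomedullin, each had at most 53 reads in a library. Their intervals were -0.33 to 0.54 and -0.41 to 0.54.

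The genes differed between libraries of the same group in a shared way. With the bacterium alone, replicates 2 and 4 were the 2 lowest of 5 for 17 of the 34 genes (50.0%), against 6.03% of all genes tested. The 17 were Slc2a1, Slc16a1, Slc16a3, Hk2, Pfkp, Tpi1, Gapdh, Pgk1, Pgam1, Eno1, Pkm, Ldha, Egln1, Egln3, Vegfa, Ankrd37 and P4ha1. With the antibody, replicates 3 and 4 were the 2 highest of 4 for 20 of the 34 (58.8%), against 35.4% of all genes. In 14 genes both held. These counts were made after the values were seen and describe these libraries. The share of ribosomal RNA in the listed TPM was 40.2 and 36.3% in antibody replicates 1 and 2 and 30.6 and 32.5% in replicates 3 and 4, which also had more reads (13731529 and 13868725, against 10213741 and 11232521). With the bacterium alone that share was 33.2 and 32.5% in replicates 2 and 4 and 32.4, 32.8 and 37.7% in replicates 1, 3 and 5. Reads in that group were 13774571 and 12371652 in replicates 2 and 4, and 12020794, 12375029 and 10914673 in replicates 1, 3 and 5. Replicate 2 was thus the deepest of the 5. The share of ribosomal RNA in the recovered reads was smaller. It was 8.66, 8.61, 6.70 and 7.44% in antibody replicates 1 to 4. With the bacterium alone it was lowest in replicates 2 and 4, at 7.12 and 6.35%, against 7.18, 7.43 and 7.87% in replicates 1, 3 and 5. Replicates 2 and 4 of the bacterium alone also had the highest adipocyte sums (238 and 225 TPM, against 175 to 184 in the other libraries of that group) and the highest fibroblast sums (1504 and 1497, against 997 to 1167). They had the highest cartilage sums as well (58.8 and 83.6, against 52.4 to 55.4) and the lowest sums of basal and suprabasal epidermis (23070 and 21854, against 24812 to 27387). Most of that last sum was Krt10, and Krt10, Krt5, Krt14, Krt1 and Dsc1 were each lowest there. The list was not uniform: Krt15 (526 and 593, against 344 to 392) and Col17a1 (188 and 194, against 169 to 187) were highest there, and Dsg1a was neither. In antibody replicates 1 to 4 the adipocyte sums were 222, 146, 152 and 153 TPM and the fibroblast sums 1318, 1408, 1352 and 1121. The cartilage sums there were 51.2, 46.8, 49.1 and 62.4 and the epidermal sums 19489, 22617, 22915 and 22169. Antibody replicates 3 and 4 were neither the 2 highest nor the 2 lowest in any of these lists. Whether these cells, ribosomal RNA or depth had a part in the pattern was not tested. Pfkm, Slc2a4, Aldoc, Ldhb and Pdk1 were highest of the 5 in replicate 4, where the genes above were low.

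**Figure D3:**
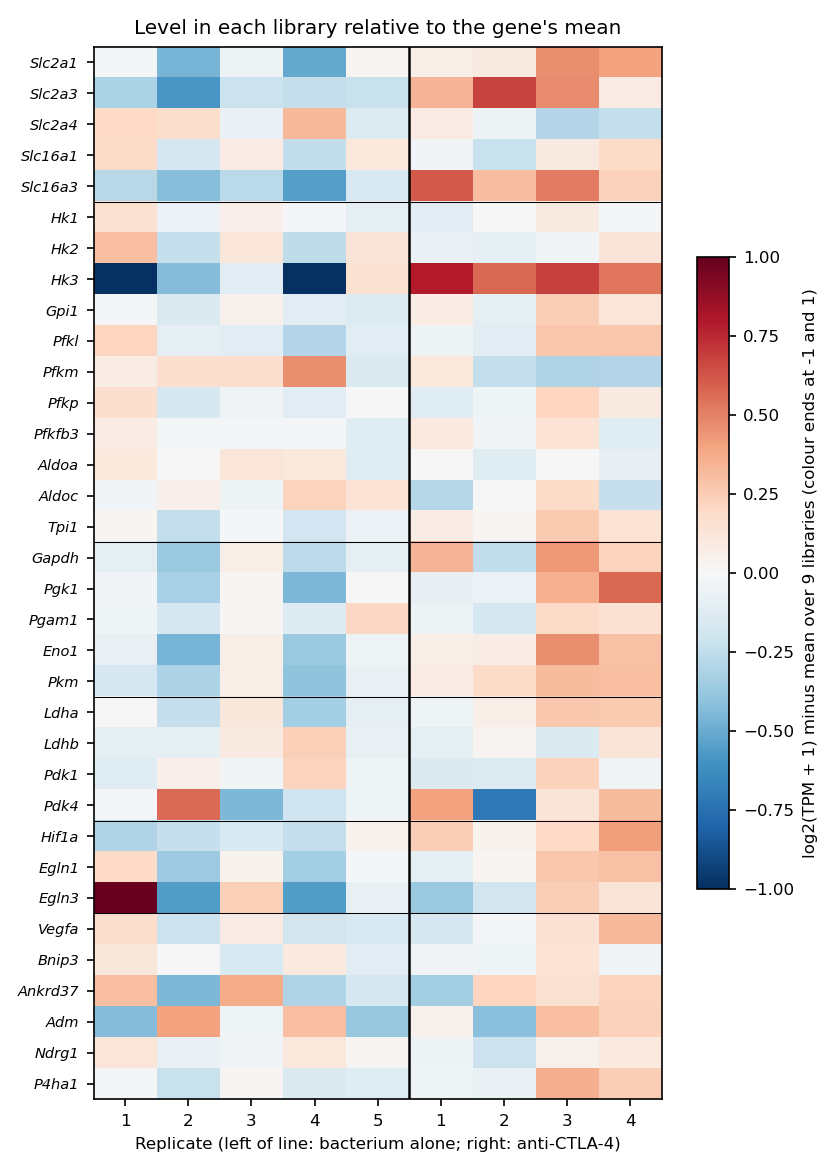
Level of the 34 genes (rows, by role) in the 9 libraries (columns, numbered by replicate), as log2(TPM + 1) minus the gene's mean over all libraries; blue is below and red above the mean. In the left block, columns 2 and 4 are blue for most glycolytic enzymes; Hk3 and Slc16a3 are red in all 4 antibody columns.

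Families in which members do the same step were also compared within each library, as the share of 1 gene in its family's reads per base of longest transcript. Such a share does not move with the scaling of the library. Of 14 shares in 8 families, 0 passed after adjustment over the 14, and 4 had an unadjusted p under 0.05 in the exact permutation test. With 126 splits of 9 libraries the smallest p possible is 0.0159. After adjustment over the 14, a share could pass only if several stood at or near that p together, so full separation in a few shares could not pass. Slc16a3 made up 10.4, 11.8, 11.3, 11.3 and 12.0% of the 2 monocarboxylate carriers with the bacterium alone and 21.1, 19.7, 18.7 and 14.7% with the antibody (exact two-sided permutation p = 0.0159, adjusted 0.111). The groups did not overlap, and Slc16a1 remained the larger share throughout. Hk3 made up 5.27% ± 2.40 (SD, n = 5) and 11.8% ± 1.29 (SD, n = 4) of the 3 hexokinases (exact two-sided permutation p = 0.0159, adjusted 0.111). The lowest antibody library, at 10.6%, lay above the highest without it, at 8.36%. Slc2a3 went from 4.42% ± 0.636 to 6.73% ± 1.77 of the 3 glucose carriers and Slc2a4 from 21.7% ± 5.24 to 14.02% ± 3.13 (SD, n = 5 and n = 4), each with an exact two-sided permutation p of 0.0317, adjusted 0.111. Slc2a1 was the largest share of these carriers in every library, from 66.2 to 83.3%. Pfkm was at 31.5% ± 4.78 and 25.5% ± 4.64 of the phosphofructokinases (SD, n = 5 and n = 4), with an exact two-sided permutation adjusted p of 0.139. Shares in a family sum to 100%, so they are not independent.

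**Figure D4:**
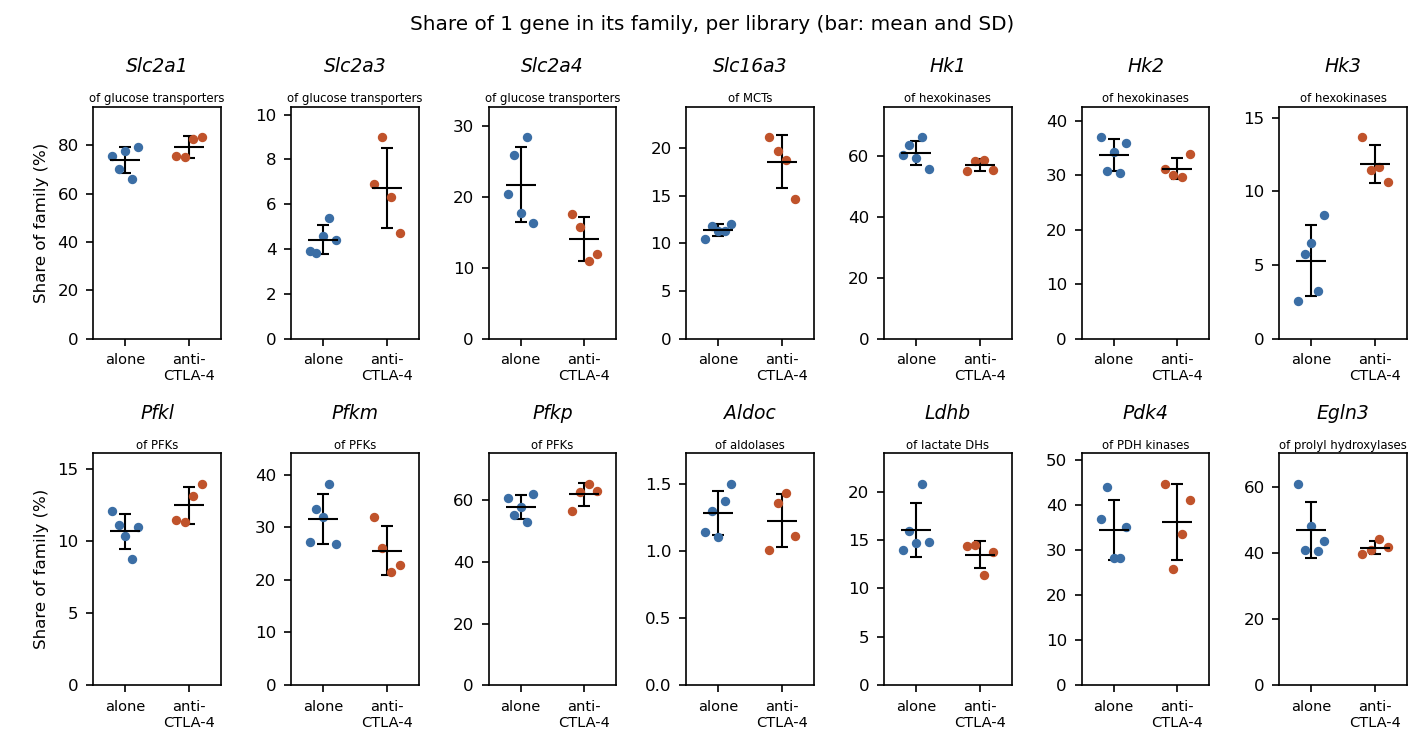
Share of 1 gene in its family's reads per transcript base (vertical axes in percent, from 0) for 14 shares; points are libraries and bars mean and SD (n = 5 and n = 4). MCTs, PFKs, DHs and PDH stand for monocarboxylate transporters, phosphofructokinases, dehydrogenases and pyruvate dehydrogenase. For Slc16a3 and Hk3 the groups do not overlap, and no share passed after adjustment.

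Per kilobase of transcript, the genes spanned a wide range with the bacterium alone. Aldoa stood at 172 ± 11.5 and Pkm at 155 ± 24.5 reads per kilobase on that scale (SD, n = 5), which do not differ beyond their spread. Ldha followed at 84.3 ± 12.6, then Gpi1 at 44.4 ± 3.49, Pfkp at 41.8 ± 4.77 and Tpi1 at 38.2 ± 3.91. Gpi1 and Pfkp, and Pfkp and Tpi1, lay within each other's SD, while Gpi1 and Tpi1 did not. The lowest were Slc2a3 at 0.946 ± 0.150 and Slc16a3 at 1.99 ± 0.301, and Slc16a3 was within its spread of Adm (2.06 ± 0.546) and Aldoc (2.21 ± 0.154). Hk3 stood at 2.70 ± 1.32 on this scale. Gapdh ranked 28 of the 34, at 3.504 ± 0.524. Its transcript has exact copies elsewhere: of its 75-base windows, the number of sequencing cycles, 80.3% also stand in transcripts of 121 other genes in GENCODE M21, 114 of them pseudogenes. The same holds for 67.5% of windows of Pgk1, 65.4% of Eno1, 40.6% of Pgam1 and 31.0% of Bnip3. How reads with several matches were counted was not stated in the labels, so levels and changes of these 5 are uncertain. A smaller share was shared by Ldhb (16.7%), Pkm (15.6%), Gpi1 (9.96%), Ldha (5.23%), Tpi1 (2.48%), Aldoa (1.49%) and Pdk4 (0.616%). The other 22 genes had no such window, among them Slc2a3, Slc16a3, Hk3 and Hif1a.

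**Figure D5:**
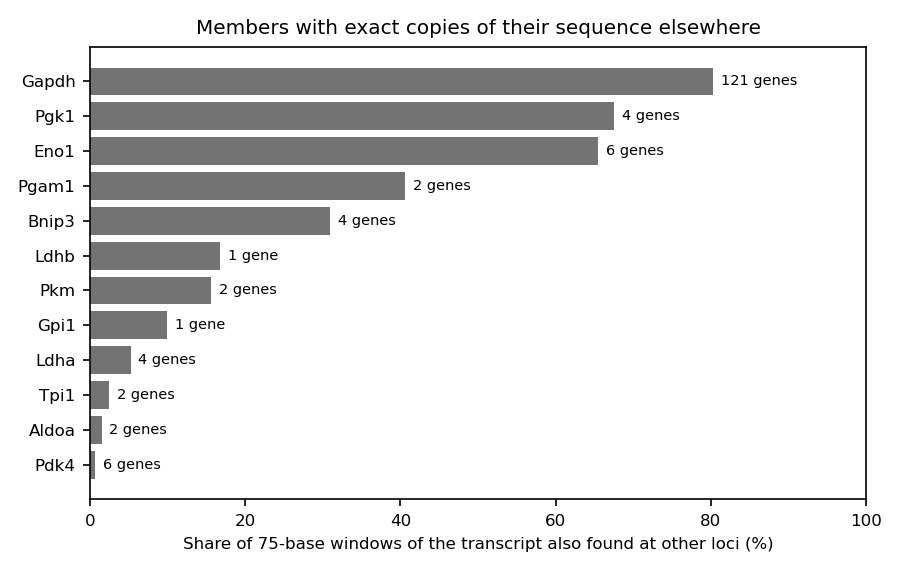
Share of 75-base windows of the longest transcript (horizontal axis, percent) with an exact match in a transcript of another gene, for the 12 genes that have any; labels give the number of other genes. Gapdh leads with 80.3%, and Pkm, the one called gene here, has 15.6%.

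Other genes of the same pathways, from lists that exclude the 34, are given for comparison. Of 23 other glycolysis and glucose-entry genes 16 were tested, and limma called 0 of them, with 2 at an unadjusted p under 0.05 and a median log2 fold change of -0.01. Voom called 1 higher and 1 lower (Slc2a9 and Pfkfb2). Those with the smallest p were Pfkfb2, an isoform of the fructose 2,6-bisphosphate enzyme (log2 fold change -0.38, limma adjusted p = 0.0679), the neuronal enolase Eno2 (-0.29, 0.0785), the urate carrier Slc2a9 (0.19, 0.226) and the muscle mutase Pgam2 (-0.18, 0.366). Of 13 genes around pyruvate dehydrogenase, limma and voom each called 0, and 0 had an unadjusted p under 0.05. The smallest there were those of Pdp1, Pdhb, Pcx and Cs, all with negative fold changes (limma adjusted p of 0.413 or more). The 14 glycogen genes also gave 0 calls by limma, with 2 at an unadjusted p under 0.05, Phkg1 and Pygm, at log2 fold changes of -0.40 each, and voom called Phkg1 lower. The next were Pygb at -0.17 and Pgm1 at 0.21.

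The pentose phosphate pathway, which branches off after hexokinase and makes NADPH, had 2 of 8 genes higher and 0 lower. H6pd, its enzyme in the endoplasmic reticulum, was at 6.28, 7.48, 6.33, 8.06 and 6.56 TPM with the bacterium alone and at 10.2, 8.81, 10.1 and 10.2 with the antibody. Taldo1, the transaldolase, was at 24.8, 29.2, 28.6, 27.2 and 27.1 TPM and at 32.0, 33.2, 33.3 and 35.8. In both genes the groups did not overlap. The log2 fold changes were 0.45 ± 0.08 and 0.29 ± 0.06 (SE; limma adjusted p = 0.0105 and 0.0173), and both calls held when any library was left out. Pgd, which makes NADPH, had 0.25 (limma adjusted p = 0.0721) and Pgls, the lactonase, 0.14 (0.346). Voom called 3 of the 8 higher, H6pd, Taldo1 and Pgd, and 0 lower.

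Among 8 other oxygen sensing genes, 7 were tested and limma called 0, with 1 at an unadjusted p under 0.05. That was Epas1, called lower by voom, which encodes HIF-2α, at 12.7 ± 1.89 and 10.1 ± 0.0641 TPM (SD, n = 5 and n = 4; log2 fold change -0.29, limma adjusted p = 0.0891). Hif1an, Vhl and Cited2, which restrain HIF, had log2 fold changes of -0.18, -0.07 and -0.06. Of 28 other genes known to be induced by low oxygen, 27 were tested, 4 were higher and 1 was lower by limma, with a median of 0.11. Voom called 5 of the 27 higher and 1 lower. Hmox1, the haem-degrading enzyme that oxidative stress also induces, was at 25.6, 34.6, 41.8, 32.6 and 35.2 TPM with the bacterium alone and at 64.4, 51.5, 77.0 and 76.2 with the antibody. The groups were far apart, with a log2 fold change of 0.96 ± 0.15 (SE; limma adjusted p = 0.00569). Plod1, a collagen lysyl hydroxylase, had 0.38 (0.0127), Rab20, an endosomal GTPase, 0.34 (0.0157), and Rora, a nuclear receptor, -0.45 (0.0112), as log2 fold changes with their limma adjusted p. Of 6 receptors for VEGF and adrenomedullin, Nrp1, the VEGF co-receptor, was higher (log2 fold change 0.35, limma adjusted p = 0.0389), a call that ended when any of 7 libraries was left out. Calcrl, Ramp3 and Ramp2, which form the adrenomedullin receptors, had 0.17, 0.15 and 0.11 and were not called by limma, while voom called Calcrl higher.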

How the data were processed

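The 9 libraries were grouped by their titles. The submitters' processing notes name build mm10 and the tools STAR, HOMER and DESeq2. Versions, roles and the handling of multiply matching reads were not stated in the sources used here. The table deposited by the authors holds TPM for 25124 genes. In 99.2% of rows the length given is gene end minus start. Low TPM times this length (genes up to 20000 bases, up to 20 reads) came within 0.1 of whole reads for 100% of values in every library. Steps set at other multiples of the library's own step gave at most 33.6%. TPM was therefore read as per base of gene span, and the recovered reads gave depths of 10213741 to 13868725 and counting errors.

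Genes that reached 1 TPM in 4 or more libraries were compared on log2(TPM + 1), a scale that understates changes of low genes, with limma 3.58.1 (R 4.3.3, trended variances, no covariate, two-sided, Benjamini-Hochberg over 15704 genes, threshold 0.05). The script was tested on simulated data. Family shares were to use TPM; since TPM is per gene span, recovered reads per base of the longest GENCODE M21 transcript were used instead, with exact permutation tests. Promoters are RefSeq's. Python 3.11.15 with numpy 2.4.6, scipy 1.17.1 and pandas 2.3.3 was used. All 34 genes were named, and of each pathway list the tested genes with the 4 smallest p; 1 further call among the low-oxygen genes is not reported here. The genes and lists were chosen with earlier results of these data known. Alternatives covered pseudocounts, filters, scalings, variance settings, a muscle covariate, the replicate number as a block, protein-coding genes and single libraries left out. Voom on recovered reads and shares of deposited TPM were added after the data were seen.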

Additional observations from a re-analysis of the deposited data

Results flagged for a closer look

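In 96 groups of 4 or 5 libraries (68 of TPM and 28 of family shares), 4 had a library far from the others by Dixon's criterion, which chance flags in about 1 of 20 groups. Antibody replicate 1 was the highest of its group for Pfkm, at 24.4 TPM (24.447 as deposited), and the lowest for Ankrd37, at 5.997 TPM. Antibody replicate 3 was the highest for Bnip3, at 13.1 TPM (13.097 as deposited). Replicate 4 of the bacterium alone had the highest share of Ldhb in the lactate dehydrogenases, at 20.82%.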

How the results depend on the processing

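Slc2a3, Slc16a3, Hk3, Pkm and Hif1a were called higher under both other pseudocounts, without the filter, under all 3 other scalings and with robust variances. A minimum of 5 TPM left 4 (Slc2a3 was not tested), protein-coding genes gave 6 and voom on recovered reads gave 9, adding Slc2a1, Tpi1, Eno1 and P4ha1. The muscle covariate gave 0, with log2 fold changes of 0.77 for Slc2a3 and 0.71 for Slc16a3 and SE 1.5 times larger in the median gene, since 52.2% of the covariate's variance lay between the groups. Leaving out each library gave 3 to 5, and no setting called any of the 34 lower. Over all genes, 1124 were higher and 704 lower (61.5% of calls higher). Quantile normalization gave 1314 and 1429 (47.9%), a common median 1302 and 1313 (49.8%), and scaling without the 50 most abundant genes 1205 and 1306 (48.0%). Voom gave 1844 and 1137, the muscle covariate 0 and 1, and leaving out each library 706 to 1094 and 337 to 703. The lowest count of higher calls was without antibody replicate 3, at 706, and of lower calls without antibody replicate 1, at 337. No scaling moved the median of all genes by over 0.1. For these differences the cause was not tested.

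Replicate numbers did not pair the libraries: same-numbered deviations correlated at -0.01, 0.02, -0.09 and -0.09, and the best partner of each antibody library had another number. With the replicate block (replicates 1 to 4, so without replicate 5 of the bacterium alone), 2 of the 34 were higher, Hk3 and Slc16a3, and over all genes 603 (3.86%) were higher and 97 lower. Under that replicate block the log2 fold changes of Hk2, Bnip3 and Adm changed sign, to 0.000454, -0.0089 and -0.02. With pairs by replicate block, 0 of the 14 shares passed, in a design of 4 pairs that cannot pass.

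No called gene changed direction. Among genes not called, 19 did under at least 1 setting. With the muscle covariate the log2 fold changes became 0.028 for Slc2a4, -0.16 for Slc16a1, -0.051 for Pfkl, 0.043 for Pfkm, -0.084 for Pfkp, 0.0094 for Aldoa, -0.12 for Pgam1, 0.085 for Ldhb, -0.039 for Pdk4, -0.021 for Egln1, -0.021 for Vegfa and -0.10 for Ankrd37. Without the 50 most abundant genes they were -0.0038 for Slc16a1 and -0.0050 for Bnip3. With voom they were 0.019 for Hk1, 0.014 for Hk2 and 0.0014 for Pdk1. Leaving out each library moved the log2 fold change between -0.044 and 0.094 for Slc16a1, -0.051 and 0.019 for Hk1, -0.094 and 0.044 for Hk2, -0.0010 and 0.12 for Pgam1, -0.084 and 0.021 for Ldhb, -0.12 and 0.015 for Pdk1, -0.061 and 0.31 for Pdk4, -0.23 and 0.19 for Egln3, -0.029 and 0.046 for Bnip3, -0.032 and 0.22 for Adm, and -0.10 and 0.0045 for Ndrg1. It moved the share difference between -0.123 and 0.0168 percentage points for Aldoc and between -1.06 and 5.27 for Pdk4. Depth limits Adm and Ankrd37 most, where counting error was 15.9% to 16.8% of the mean.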
